A study of Mus musculus with 16 samples.

Results

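Mitotic spindle and G2/M genes are the genes whose RNA accumulates as a cell prepares to divide, and 42 of them, given by name, were looked up among the 31053 genes of both deposited matrices. All 42 symbols were found, each as 1 gene. They were sorted by textbook role into 7 groups, namely the CDK1 module, mitotic kinases, kinetochore and centromere proteins with the chromosomal passenger complex, the anaphase-promoting complex (APC/C) and its ubiquitin enzymes, spindle microtubule proteins and motors, cytokinesis proteins, and chromosome structure proteins. The cells came from organoids, which are epithelial cultures grown in 3 dimensions, of mouse colon tumours raised with azoxymethane and dextran sodium sulfate (AOM/DSS), at passage 14. The library labelled plus TAM carries the genotype KMT9ko/ko and the library labelled minus TAM the genotype KMT9wt/wt, and the labels do not spell out TAM. Because the knockout was always plus TAM, effects of TAM and of the genotype cannot be told apart. KMT9 is a histone methyltransferase whose catalytic subunit is encoded by N6amt1 and whose second subunit is encoded by Trmt112, and the series title concerns growth and stemness of colorectal cancer. The 16 records are 8 for plus TAM and 8 for minus TAM, and each group was deposited as 1 pooled matrix, so n = 1 library per group. The sources used here do not say if the records of a group came from separate cultures. There are no replicates to test across, every difference describes these libraries, and all intervals are 95% intervals that cover counting error only.

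A cell entering division raises cyclin B, which activates the kinase CDK1, and CDK1 together with the Polo and Aurora kinases breaks down the nuclear envelope, condenses the chromosomes and builds the spindle. Kinetochores then attach chromosomes to spindle microtubules while checkpoint kinases hold back the APC/C. Once released, the APC/C marks cyclin B and securin for destruction, the chromosomes part, and cytokinesis divides the cell. Transcription of most of these genes peaks in G2 and mitosis. In the colon, dividing cells lie in the lower crypt, and tumour organoids hold dividing and non-dividing epithelial cells side by side.

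After filtering, 1481 plus TAM cells and 2629 minus TAM cells remained, with 37360718 and 68620956 UMIs (each a tag of 1 captured RNA molecule) and medians of 24201 and 24604 UMIs per cell. N6amt1 had 6.10 CPM, that is counts per 1000000 UMIs, in the plus TAM library and 34.1 CPM in the minus TAM library, a log2 ratio of -2.48 (interval -2.69 to -2.29) that rests on 228 and 2343 UMIs. The assay reads the 3′ ends of transcripts. The sources used here do not give the exon removed, so this value may not read the deletion itself. Trmt112 stood at 165 CPM in plus TAM and 209 CPM in minus TAM cells, a log2 ratio of -0.34. All 8 epithelial markers looked up, Epcam and keratins among them, were measured in both libraries. The 6 fibroblast markers summed to 0.268 CPM in plus TAM and 0.117 CPM in minus TAM cells, with Col1a2, Col3a1, Dcn and Lum at 0 in both. Of 6 immune markers Cd68 alone reached 10 CPM, and of 4 endothelial markers Cdh5 alone did, while Kdr was at 0 in both. The matrices shared 498 cell barcodes, and kept cells with such a barcode numbered 324 in the plus TAM library (21.9%) and 168 in the minus TAM library (6.39%). The main results are therefore also given without those cells.

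Across all kept cells, the G2/M genes were lower in the plus TAM library as a group. Their summed level was 1491 CPM in plus TAM cells and 2233 CPM in minus TAM cells. Of the 42, 34 were measured at 10 CPM or more in at least 1 library, and 25 of these were lower by 1.5-fold or more and 0 were higher, with a median log2 ratio (plus TAM over minus TAM) of -0.72. Among all 7914 genes measured at that level, 10.7% were lower and 8.09% higher by 1.5-fold, and the median log2 ratio was -0.06. Of the lower members, Cenpe, Kif2c, Hmmr, Dlgap5, Ckap2l, Gtse1, Kif20b and Cdca2 reached 10 CPM in the minus TAM library alone. Such genes pass the minimum only through the library where they are high, so they could not have been counted as higher. The 8 members below 10 CPM in both libraries were Cdc25c, Bub1, Bub1b, Ttk, Ndc80, Nuf2, Kif11 and Anln. At a minimum of 5 CPM, which all 42 reached, 29 of 42 were lower against 10.8% of all genes. The log2 ratio of each of the 42 was below 0, against 56.4% of the 7914 genes measured at 10 CPM. For 40 of the 42 the counting interval lay wholly below 0, and the exceptions were Ccnb2 and Ckap5. Intervals were not counted in this way over all genes. Without the cells of shared barcodes, 20 of 32 measured members were lower, against 11.4% of all genes, the median was -0.66, and Ccnb2 alone stood above 0, at 0.25.

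**Figure D1:**
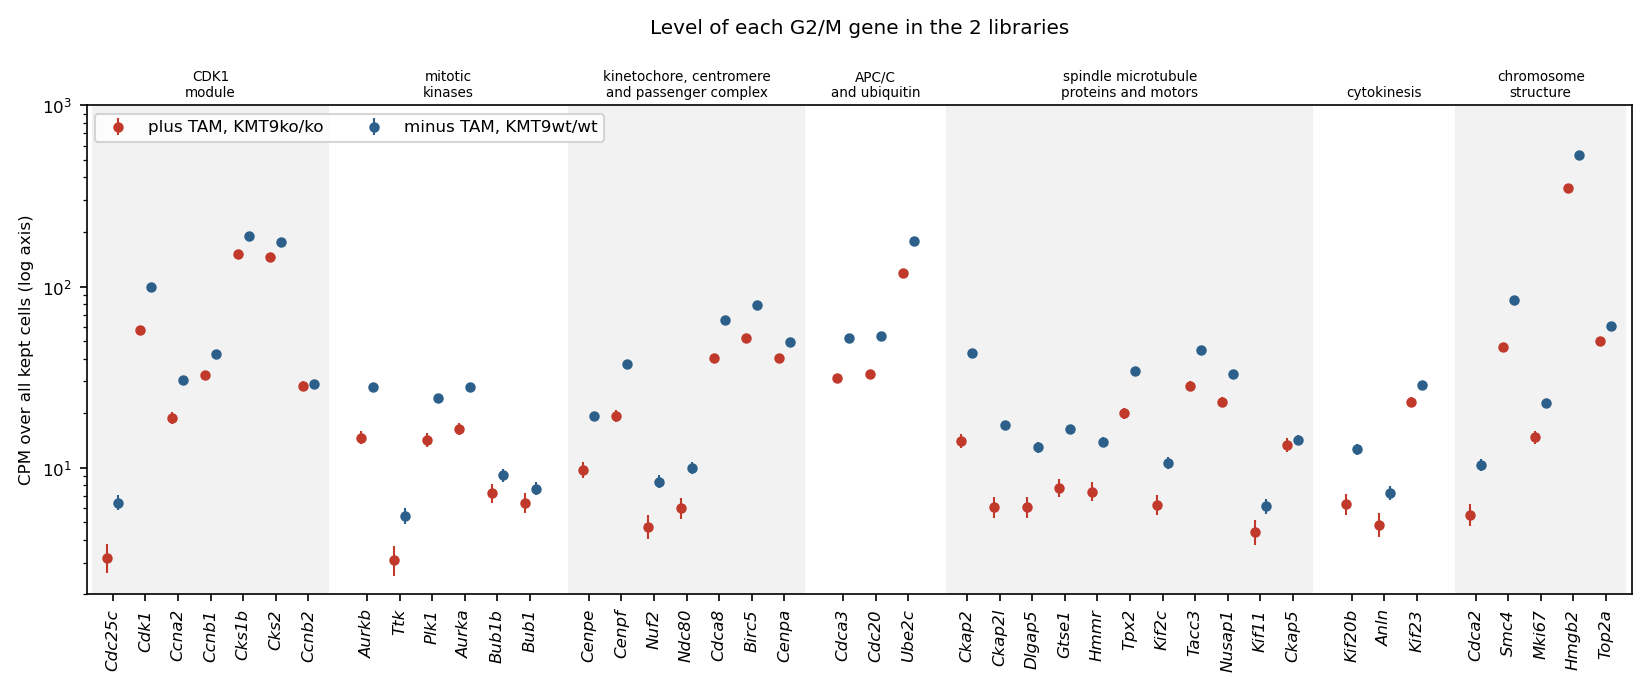
CPM of each of the 42 genes summed over all kept cells, on a log axis, grouped by role and ordered within a role by ratio; red points are the plus TAM library, blue points the minus TAM library, bars are 95% Poisson counting intervals, and there is 1 library per group. The red point lies below the blue one for every gene, by a log2 ratio between -1.60 for Ckap2 and -0.03 for Ccnb2.

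Genes of this class are known to share promoter elements. The cell cycle genes homology region (CHR), a binding site of the MuvB core of the DREAM and B-MYB complexes, is most often written TTTGAA, and CCAAT boxes bound by NF-Y often stand near it. Of the 42 members, 35 had a promoter in the RefSeq table for GRCm38.p6, from 250 bases before to 50 bases after the start, and both strands were searched. A CHR hexamer, searched as TTTGAA and its variants TTCGAA and also TTTAAA, occurred in 31 of 35 members (88.6%), against 28.8% of all 32851 promoters and 21.03% of the 8057 promoters of genes measured here. CCAAT occurred in 27 of 35 (77.1%), against 37.4% of all promoters and 37.7% of those of measured genes. Both kinds stood together in 26 of 35 (74.3%), against 11.3% and 8.14%, and they overlapped in 1 member promoter, that of Cdca8. The 4 members without any of these hexamers in the window were Cks2, Nuf2, Nusap1 and Tacc3. A match is a run of letters in a window and was not tested as a binding site.

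The stretches below, 200 bases before to 30 bases from the RefSeq start, are shown for 5 members, namely Ckap2 and Ckap2l, which had the smallest ratios in all cells, Ccnb2 and Top2a, which had the largest ratios in the member-rich cells described further on, and Cdk1, the kinase the programme is built around. Each is written 5′ to 3′ on the gene's strand, and capitals mark the hexamers and CCAAT in either orientation, so that ATTGG is CCAAT and TTCAAA is TTTGAA read from the other strand.
Ckap2, chr8:22185790-22186019, minus strand: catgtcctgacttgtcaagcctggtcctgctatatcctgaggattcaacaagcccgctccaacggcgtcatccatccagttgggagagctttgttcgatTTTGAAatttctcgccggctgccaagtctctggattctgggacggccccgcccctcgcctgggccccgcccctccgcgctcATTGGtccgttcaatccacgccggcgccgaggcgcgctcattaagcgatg
Ckap2l, chr2:129297183-129297412, minus strand: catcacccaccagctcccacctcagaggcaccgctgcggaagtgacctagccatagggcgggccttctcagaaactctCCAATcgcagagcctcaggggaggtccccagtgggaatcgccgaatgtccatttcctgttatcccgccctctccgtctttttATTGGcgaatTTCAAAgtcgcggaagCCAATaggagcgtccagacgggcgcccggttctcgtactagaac
Cdk1, chr10:69352883-69353112, minus strand: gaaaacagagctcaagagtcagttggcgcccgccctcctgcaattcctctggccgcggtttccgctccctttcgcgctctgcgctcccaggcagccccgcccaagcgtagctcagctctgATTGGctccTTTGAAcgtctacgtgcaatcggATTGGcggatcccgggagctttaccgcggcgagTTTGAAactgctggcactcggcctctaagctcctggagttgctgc
Ccnb2, chr9:70421525-70421754, minus strand: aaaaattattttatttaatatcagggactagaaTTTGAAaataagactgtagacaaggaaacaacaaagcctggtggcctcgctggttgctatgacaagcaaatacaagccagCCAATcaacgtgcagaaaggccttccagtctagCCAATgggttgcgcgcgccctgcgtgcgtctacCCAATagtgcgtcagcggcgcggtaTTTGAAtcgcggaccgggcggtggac
Top2a, chr11:99024160-99024389, minus strand: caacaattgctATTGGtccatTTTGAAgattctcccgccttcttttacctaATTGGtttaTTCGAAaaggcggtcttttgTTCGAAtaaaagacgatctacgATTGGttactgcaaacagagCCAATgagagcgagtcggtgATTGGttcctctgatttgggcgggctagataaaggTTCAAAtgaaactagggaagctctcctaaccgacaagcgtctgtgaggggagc
All 5 hold a hexamer and a CCAAT box in this stretch, with 1 hexamer each in Ckap2 and Ckap2l, 2 each in Cdk1 and Ccnb2 and 4 in Top2a. The same 2 kinds of element thus stand in members with small and with large ratios, and the hexamer nearest to the start lies at position -101 in Ckap2, -30 in Ckap2l, -15 in Cdk1, 5 in Ccnb2 and -23 in Top2a, counted from the start.

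The CDK1 module was split, with 2 of its 6 measured members lower by 1.5-fold or more and a median log2 ratio of -0.35. Cdk1, the kinase itself (chromosome 10, 69335146 to 69352938, minus strand, GRCm38), had 57.3 CPM in plus TAM cells and 99.8 CPM in minus TAM cells, a log2 ratio of -0.80 (interval -0.87 to -0.73). Ccna2, cyclin A2, which serves in S phase and G2, followed at -0.69. The B cyclins, which bind CDK1 for mitosis, lay closer to 0. Ccnb1 had 32.4 CPM in plus TAM cells and 42.2 CPM in minus TAM cells, a log2 ratio of -0.38. Ccnb2 (chromosome 9, 70407692 to 70421547, minus strand) had 28.4 CPM in plus TAM and 29.1 CPM in minus TAM cells, and its log2 ratio of -0.03 (interval -0.14 to 0.08) was not distinguishable from 0 at this depth. Counted within each library, there were 1.72 Ccnb1 UMIs per Ccna2 UMI (interval 1.57 to 1.89) in plus TAM cells and 1.39 (1.31 to 1.47) in minus TAM cells. The small CDK-binding subunits Cks1b and Cks2 stood at -0.32 and -0.28, and Cdc25c, the phosphatase that activates CDK1, at -1.02 on 118 and 441 UMIs. Ccna2 and Cdc25c lie over a gene of the other strand, as do Cdca8, Cdc20, Ube2c, Nusap1, Ckap2l and Tacc3. The sources used here do not say if counting kept strands apart.

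All 3 measured mitotic kinases were lower by 1.5-fold or more. Aurkb, the catalytic subunit of the chromosomal passenger complex, had 14.6 CPM in plus TAM cells and 27.8 CPM in minus TAM cells, a log2 ratio of -0.92 (interval -1.06 to -0.79). Aurka, which acts at centrosomes and the spindle, had 16.4 CPM in plus TAM cells and 27.8 CPM in minus TAM cells, a log2 ratio of -0.76 (-0.90 to -0.63), and Plk1, the Polo kinase, stood at -0.78. The checkpoint kinase genes were below 10 CPM in both libraries and went by different amounts. Ttk, which encodes MPS1, had a log2 ratio of -0.82 on 115 and 372 UMIs. Bub1 and Bub1b stood at -0.26 and -0.33, on 240 and 527 UMIs for Bub1 and on 270 and 623 UMIs for Bub1b, so that neither reached 1.5-fold.

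Of the kinetochore, centromere and passenger complex genes, 4 of 5 measured were lower, with a median of -0.69. Cenpe, a kinesin that moves chromosomes along microtubules to the spindle equator, had 9.77 CPM in plus TAM cells and 19.3 CPM in minus TAM cells, a log2 ratio of -0.99 (interval -1.16 to -0.82). Cenpf, a large outer kinetochore protein, stood at -0.96. The passenger complex subunits Cdca8 (borealin) and Birc5 (survivin) stood at -0.69 and -0.60. Cenpa, the histone H3 variant that marks the centromere, was the member nearest to 0, with 40.5 CPM in plus TAM and 49.7 CPM in minus TAM cells and a log2 ratio of -0.29 (-0.38 to -0.21). Ndc80 and Nuf2, partner subunits of the complex that grips microtubules, stood at -0.74 and -0.82 and their proportions overlapped within the counting intervals, with 1.26 Ndc80 UMIs per Nuf2 UMI (interval 1.03 to 1.54) in plus TAM cells and 1.195 (1.07 to 1.34) in minus TAM cells.

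The 3 genes of the APC/C and ubiquitin group were all measured and all lower by 1.5-fold or more. Cdca3, an F-box-like protein linked to the degradation of the CDK1 inhibitor WEE1, had 31.1 CPM in plus TAM and 51.8 CPM in minus TAM cells, a log2 ratio of -0.73 (interval -0.83 to -0.64). Cdc20, the mitotic activator of the APC/C, stood at -0.70. Ube2c, the ubiquitin-conjugating enzyme of the APC/C, had 118 CPM in plus TAM cells and 178 CPM in minus TAM cells, a log2 ratio of -0.59 (-0.64 to -0.54), which lies just past 1.5-fold.

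Spindle microtubule proteins and motors held the members with the smallest ratios, and 8 of 10 measured were lower, with a median of -0.84. Of the lower ones, Kif2c, Hmmr, Dlgap5, Ckap2l and Gtse1 reached 10 CPM in the minus TAM library alone. The count and the median of this group thus rest partly on genes that passed the minimum only where they are high. Ckap2, which binds and stabilises spindle microtubules (chromosome 8, 22168160 to 22185819, minus strand), had 14.1 CPM in plus TAM cells and 42.9 CPM in minus TAM cells, which is 3.04-fold lower (log2 ratio -1.60, interval -1.74 to -1.47). Its paralogue Ckap2l (chromosome 2, 129268210 to 129297212, minus strand) had 6.05 CPM in plus TAM cells and 17.2 CPM in minus TAM cells, 2.84-fold lower. Next came Dlgap5 (HURP), which bundles kinetochore fibres, at -1.09, and Gtse1, a microtubule-binding protein of G2 and mitosis, at 7.76 CPM in plus TAM cells and 16.3 CPM in minus TAM cells (-1.07). Hmmr stood at -0.90, Tpx2, the activator of Aurora A on spindle microtubules, at -0.78, the microtubule depolymerase gene Kif2c at -0.76, and Tacc3, which cross-links kinetochore fibres, at -0.67. The microtubule-binding gene Nusap1 (-0.51) and Kif11 (-0.48), the motor that pushes spindle poles apart, did not reach 1.5-fold. At the other end, Ckap5, a microtubule polymerase that also acts outside mitosis, had 13.3 CPM in plus TAM and 14.2 CPM in minus TAM cells, a log2 ratio of -0.09 (-0.25 to 0.07).

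In the cytokinesis group, Kif20b, a kinesin of late division, had 6.29 CPM in plus TAM and 12.6 CPM in minus TAM cells, a log2 ratio of -1.005 (interval -1.22 to -0.80). Kif23, a motor subunit of centralspindlin, had 23.1 CPM in plus TAM cells and 28.7 CPM in minus TAM cells, a log2 ratio of -0.31 (-0.43 to -0.20). Anln (anillin), a scaffold of the contractile ring, stood at -0.58 on 181 and 498 UMIs. Of the 5 chromosome structure genes, 4 were lower. Cdca2 (Repo-Man), which brings protein phosphatase 1 to chromatin, had 5.51 CPM in plus TAM and 10.4 CPM in minus TAM cells, a log2 ratio of -0.91 (-1.15 to -0.69). Smc4, a core condensin subunit, stood at -0.87, Mki67, which coats mitotic chromosomes, at -0.62 and the chromatin protein gene Hmgb2 at -0.61. Top2a, the DNA topoisomerase that untangles sister chromatids (chromosome 11, 98992943 to 99024189, minus strand), had 49.9 CPM in plus TAM cells and 60.2 CPM in minus TAM cells, a log2 ratio of -0.27 (-0.35 to -0.19).

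The members' UMIs lay in few cells. Each cell was scored by the share of its UMIs that came from the members, leaving out the member being described, and cells at or above the 80th percentile of both libraries together, 0.166% of UMIs, were called member-rich. Scored on all 42 genes, 185 of 1481 plus TAM cells (12.5%, interval 10.8 to 14.3) and 637 of 2629 minus TAM cells (24.2%, 22.6 to 25.9) were member-rich. Within 10% of this threshold lay 14 plus TAM cells and 58 minus TAM cells. Of a member's UMIs, a median of 90% in the plus TAM library and 91.6% in the minus TAM library lay in such cells, and the share was 80% or more for 33 and 35 of the 42 members. The least confined was Ckap5, with 38.4% of its UMIs in member-rich plus TAM cells and 52.3% in member-rich minus TAM cells, followed in the plus TAM library by Cks1b with 45.1% and Gtse1 with 52.1%. Without the cells of shared barcodes, 145 plus TAM cells (12.5%) and 579 minus TAM cells (23.5%) were member-rich. The score on all 42 genes also served for shares of thinned cells, UMI ratios between members, the division by S phase level and correlations. In those results a member's own UMIs helped to choose the cells.

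**Figure D2:**
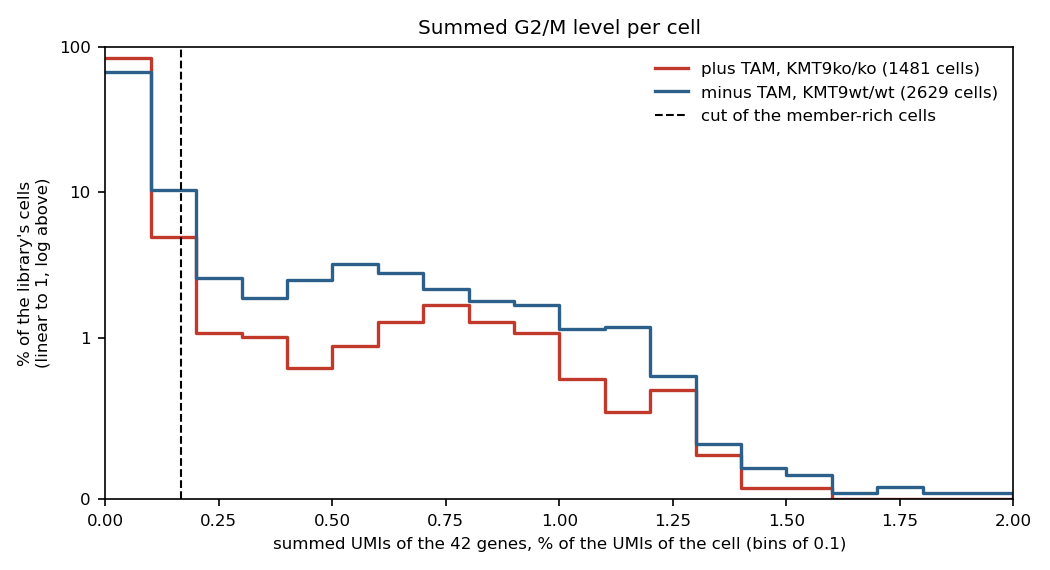
Histogram of the summed UMIs of the 42 genes as a percentage of the UMIs of a cell, in bins of 0.1; the vertical axis is the percentage of the cells of a library, linear up to 1 and logarithmic above, red for plus TAM and blue for minus TAM, and the dashed line is the 80th percentile threshold at 0.166%. To the right of the line lie 12.5% of the plus TAM cells and 24.2% of the minus TAM cells, and the highest cell reaches 1.52% in plus TAM and 1.91% in minus TAM.

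The summed level of a member-rich cell was similar in both libraries. Member UMIs made up a mean of 0.692% of the UMIs of a member-rich plus TAM cell and 0.654% of those of a member-rich minus TAM cell. After thinning each cell to 5000 UMIs, which left out 94 plus TAM and 142 minus TAM cells, member-rich cells had a UMI of a mean of 15.98 members in plus TAM and 15.4 members in minus TAM. Over all thinned cells those means were 3.41 and 5.30 members, and 10.3% of plus TAM cells and 19.1% of minus TAM cells had a UMI of 10 or more members. Because the same threshold picks the cells of both libraries, ratios within member-rich cells lie closer to 0 partly by construction.

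Within member-rich cells, 37 of the 42 genes lay within 1.5-fold. All 42 were measured there, and the median was 0.06. A log2 ratio below 0 was found for 14 (33.3%), against 61.5% of all genes measured in these cells. By 1.5-fold or more, 3 were lower and 2 higher, whereas 13.1% of the 7919 genes measured in these cells were lower and 6.39% higher, with a median of -0.12, so the share of members past the threshold was below the background for lower genes and near it for higher genes. Every member's log2 ratio was larger in member-rich cells than in all cells, by 0.34 to 0.93 with a median of 0.80. The medians by role were 0.12 for the CDK1 module, 0.10 for the kinases, 0.01 for the kinetochore and centromere group, 0.16 for the APC/C and ubiquitin group, -0.08 for spindle proteins, 0.23 for cytokinesis and 0.02 for chromosome structure. Counting intervals lay wholly below 0 for 8 members and wholly above 0 for 17. The same was not counted over all genes, so these 2 counts have no background to be read against.

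**Figure D3:**
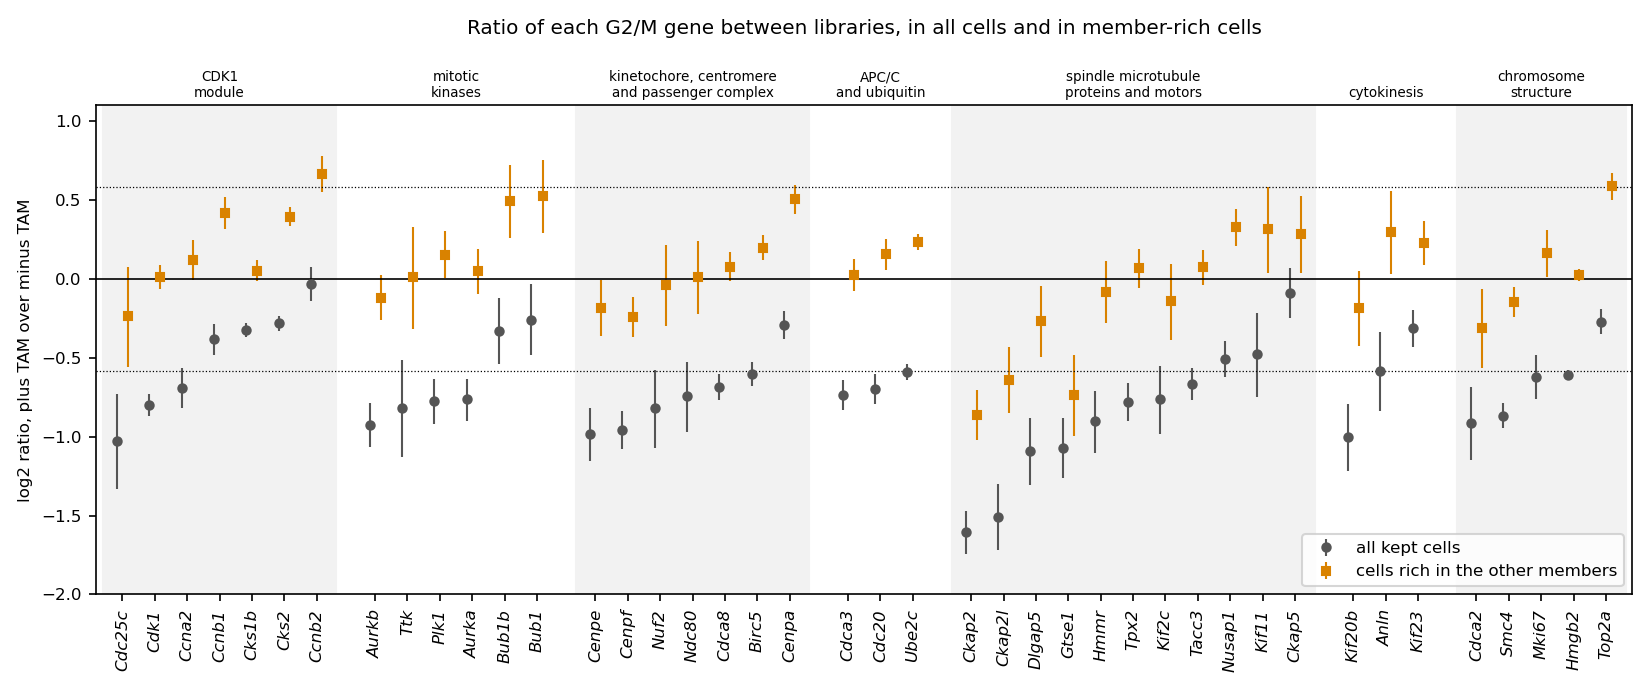
Log2 ratio, plus TAM over minus TAM, of each of the 42 genes by role, in all kept cells (grey circles) and in cells rich in the other members (orange squares); bars are 95% counting intervals, the solid line is 0 and dotted lines mark 1.5-fold. Grey circles lie at or below -0.03 for every gene, while orange squares lie around 0. The orange squares of Ckap2, Ckap2l and Gtse1 lie below the lower dotted line, that of Ccnb2 above the upper one and that of Top2a just past it.

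The 3 members lower by 1.5-fold or more within member-rich cells all belong to the spindle group. Ckap2 had 68.6 CPM in member-rich plus TAM cells and 125 CPM in member-rich minus TAM cells, a log2 ratio of -0.86 (interval -1.02 to -0.71). Gtse1 had 26.8 CPM in plus TAM and 44.5 CPM in minus TAM, a log2 ratio of -0.73 (-0.99 to -0.48), and Ckap2l had 39.3 CPM in plus TAM and 61.2 CPM in minus TAM, a log2 ratio of -0.64 (-0.85 to -0.43). Ckap2 was also lower among cells with a member share below the median of all cells, at 4.03 CPM in plus TAM and 11.8 CPM in minus TAM cells. In those cells 6 members reached 10 CPM, of which Ckap2 and Ube2c (-0.74) did so in the minus TAM library alone. The other 4 stood at -0.73 for Smc4, -0.40 for Hmgb2, -0.22 for Cks2 and 0.04 for Cks1b. After thinning, a Ckap2 UMI was found in 6.06% of plus TAM cells and 14.3% of minus TAM cells (16.1% and 35.8% before thinning), against 1.39% and 4.71% of the cells with few member UMIs. Without the cells of shared barcodes, the same 3 genes were the members lower in member-rich cells, against 15.5% of all genes, at -0.85 for Ckap2, -0.74 for Gtse1 and -0.62 for Ckap2l.

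The 2 members higher in member-rich cells were Ccnb2 and Top2a. Ccnb2 had 165 CPM in member-rich plus TAM cells and 104 CPM in member-rich minus TAM cells, a log2 ratio of 0.66 (interval 0.55 to 0.78). Top2a had 300.3 CPM in plus TAM and 200.1 CPM in minus TAM, a log2 ratio of 0.59 (0.50 to 0.67) that lies at the 1.5-fold threshold. Next in order, and short of the threshold, were Bub1 (0.52), Cenpa (0.51), Bub1b (0.49), Ccnb1 (0.42) and Cks2 (0.39). Within each library, member-rich cells held 1.23 Cks2 UMIs per Cks1b UMI (interval 1.17 to 1.30) in plus TAM and 0.967 (0.937 to 0.998) in minus TAM. After thinning, a Ccnb2 UMI was found in 49.1% of member-rich plus TAM cells and 32.3% of member-rich minus TAM cells, against 1.18% and 0.784% of cells with few member UMIs. For Top2a these shares were 67.8% and 55.3%, against 0.964% and 2.75%. These shares and the Cks2 per Cks1b ratio used cells scored on all 42 genes. A gene's own UMIs therefore helped to choose the cells, and part of each contrast with cells of few member UMIs is built in. Without the cells of shared barcodes, Ccnb2 (0.84) and Cenpa (0.63) were the higher ones, 2 of 42 against 5.90% of all genes, and Top2a stood at 0.46. With the threshold set at the 80th percentile of each library on its own, 21 of 42 members were lower in member-rich cells and 0 higher, against 15.6% and 7.96% of all genes. The median was then -0.59, all 42 lay below 0, and Ccnb2 and Top2a stood at -0.0061 and -0.078.

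The member-rich cells of the libraries differed in how many also expressed DNA replication genes. A list of 44 S phase genes was scored in the same way, with the threshold at 0.234% of UMIs. Cells rich in both lists made up 5.20% of plus TAM cells (77 cells, interval 4.12 to 6.46) and 17.3% of minus TAM cells (456 cells, 15.9 to 18.8). Cells rich in members only made up 7.29% of plus TAM cells (108 cells, 6.02 to 8.74) and 6.88% of minus TAM cells (181 cells, 5.95 to 7.92), and those shares were not distinguishable at this depth. Cells rich in S phase genes only made up 3.11% of plus TAM and 9.24% of minus TAM cells. Of the member-rich cells alone, 41.6% in plus TAM and 71.6% in minus TAM were also rich in S phase genes. Without the cells of shared barcodes, cells rich in both made up 4.49% of plus TAM and 16.9% of minus TAM cells, and cells rich in members only 8.04% and 6.66%. Within 10% of the S phase threshold lay 30 plus TAM cells and 143 minus TAM cells.

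**Figure D4:**
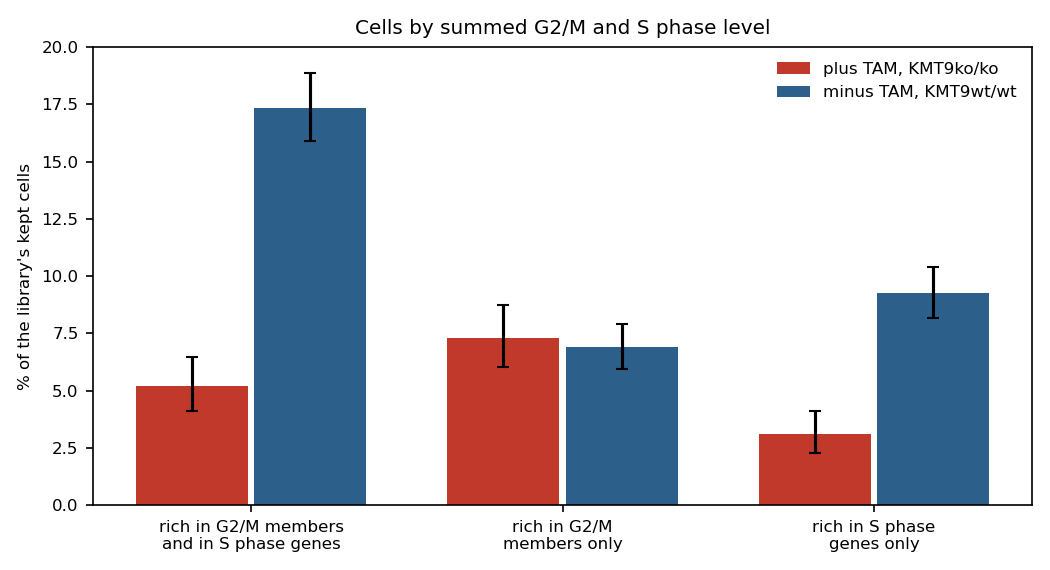
Percentage of the kept cells of each library that were rich in the G2/M members and in S phase genes, in members only, or in S phase genes only; red bars are plus TAM, blue bars minus TAM, and error bars are exact 95% binomial intervals. The red bar is lower in the first class (5.20% and 17.3%) and in the third (3.11% and 9.24%), and the bars of the second overlap within their intervals (7.29% and 6.88%).

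Some ratios in member-rich cells changed when the cells were divided by S phase level. These classes were taken from cells scored on all 42 genes, whereas ratios over all member-rich cells left the gene itself out of the score. Ccnb2 had 85.7 CPM in plus TAM and 77.9 CPM in minus TAM cells rich in both lists, a log2 ratio of 0.14 (interval -0.09 to 0.37). In cells rich in members only it had 214 CPM in plus TAM and 171 CPM in minus TAM, a log2 ratio of 0.33 (0.19 to 0.47), so that in neither class did it reach the 1.5-fold found over all member-rich cells. These ratios were 0.42 and 0.37 without the cells of shared barcodes. Cenpa, at 0.51 over all member-rich cells, stood at -0.10 in cells rich in both lists and at 0.10 in cells rich in members only. Both genes were at a higher level in cells rich in members only, the class that made up more of the member-rich cells in plus TAM. The part of this difference in their ratios over all member-rich cells was not tested. Top2a stood at 0.83 (0.71 to 0.94) in cells rich in both and at 0.58 (0.44 to 0.72) in cells rich in members only, and without the cells of shared barcodes at 0.79 and 0.41. Bub1 stood at 0.64 and 0.60 in these classes, on 98 and 378 UMIs in the first and on 124 and 123 UMIs in the second. Leaving out shared barcodes, Bub1 stood at 0.55 and 0.34, and its interval in cells rich in members only spanned 0 (-0.08 to 0.76). On the lower side, Ckap2 stood at -1.003 (-1.29 to -0.73) in cells rich in both and at -1.09 (-1.30 to -0.90) in cells rich in members only. These were -0.84 and -1.20 without the cells of shared barcodes. Ckap2l stood at -0.49 and -0.94 in these classes, and Gtse1 at -0.85 and -0.60. With shared barcodes left out, Ckap2l stood at -0.42 (-0.87 to 0.01) and -0.95, and Gtse1 at -0.77 and -0.74. Over all 42 members the median was 0.13 in cells rich in both and -0.10 in cells rich in members only.

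Other genes of the same programme and of S phase were read beside the members. Of 89 further G2/M genes, 58 were measured in all cells, 30 were lower by 1.5-fold or more and 0 higher. Among all genes measured in all cells, 10.7% were lower and 8.09% higher. The median log2 ratio of the 58 was -0.60. Genes that reached 10 CPM in the minus TAM library alone, such as Kifc1, could not have been counted as higher. The 3 of this list with the smallest ratios were Spc24, a subunit of the NDC80 complex, at 16.6 CPM in plus TAM and 44.4 CPM in minus TAM cells (-1.42), the centrosome kinase gene Nek2 (-1.25) and Mybl2 (-1.22), which encodes B-MYB. The highest were Zwint, a kinetochore protein, at 94.6 CPM in plus TAM and 65.2 CPM in minus TAM cells (0.54), and the nuclear import receptor gene Kpna2 (0.26). Within member-rich cells their median was -0.00, with 6 of 84 measured lower and 5 higher, shares below or near the 13.1% and 6.39% of all genes in these cells. The 44 S phase genes lay lower still. Of the 38 measured in all cells, 34 were lower and 0 higher, against 10.7% and 8.09% of all genes, and the median was -1.18. Gins1, Cdc45, Cdc6, Pola2, Rad51ap1, Dscc1, Chaf1a, Ccne1 and Clspn reached 10 CPM in the minus TAM library alone, so they could not have been counted as higher. Chaf1a, a chromatin assembly subunit, had 8.86 CPM in plus TAM cells and 28.3 CPM in minus TAM cells (-1.68), the uracil glycosylase gene Ung stood at -1.65 and the repair gene Rad51ap1 at -1.48, and the highest were Pola2 (-0.45) and Pcna (-0.46). S phase genes were also lower within member-rich cells, with 23 of 44 lower, all 44 below 0 and a median of -0.60. Of all genes measured in these cells, 13.1% were lower and 61.5% lay below 0. The common threshold was set on member level, so it draws the members' ratios towards 0 but does not select on S phase genes. A contrast between the lists in these cells is thus partly set by construction. With a threshold set in each library, 21 of 42 members were lower, against 15.6% of all genes, with a median of -0.59.

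The libraries also differed in markers of other cells. Colonocyte markers summed to 314 CPM in plus TAM and 64.2 CPM in minus TAM cells, and to 27.5 CPM and 18.0 CPM within member-rich cells. Of these 6 markers, 4 were measured in all cells and 4 were higher in plus TAM, against 8.09% of all genes. Krt20, Muc3 and Clca4a reached 10 CPM in the plus TAM library alone, so they could not have been counted as lower. The 4 endothelial markers summed to 20.1 CPM in plus TAM and 10.3 CPM in minus TAM cells, and to 23.4 CPM and 7.92 CPM within member-rich cells. Most of this was Cdh5, at 17.3 CPM in plus TAM and 7.32 CPM in minus TAM cells (log2 ratio 1.24). Vwf had 2.30 CPM in plus TAM and 2.77 CPM in minus TAM cells, on 86 and 190 UMIs. Pecam1 had 0.509 CPM in plus TAM and 0.248 CPM in minus TAM cells, on 19 and 17 UMIs. Epithelial markers summed to 14451 CPM in plus TAM and 12870 CPM in minus TAM cells. Cells with a shared barcode made up 24.9% of member-rich plus TAM cells and 14.1% of member-rich minus TAM cells, and 21.5% and 3.92% of the remaining cells. The part of these differences in the members' ratios was not tested, apart from the values without shared barcodes given above. N6amt1 within member-rich cells stood at 4.61 CPM in plus TAM and 30.4 CPM in minus TAM. Among thinned plus TAM cells with an N6amt1 UMI, 6 of 43 were member-rich (14.0%, interval 5.30 to 27.9), and among those without one 165 of 1344 were (12.3%, 10.6 to 14.2), a difference within the counting intervals. Of these plus TAM cells, 12 of the 43 and 310 of the 1344 had a shared barcode. Among thinned minus TAM cells, 77 of 408 with an N6amt1 UMI were member-rich (18.9%, 15.2 to 23.0) and 511 of 2079 without one (24.6%, 22.7 to 26.5).

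Some pairs of members also varied together from cell to cell within each library, while others did not. Over 185 member-rich plus TAM cells, the pairs with the highest Pearson correlation of log-normalised levels were Ccnb2 with Cdc20 (0.75), Ube2c with Nusap1 (0.69) and Ccnb1 with Plk1 (0.68). Over 637 member-rich minus TAM cells they were Cenpa with Ube2c (0.73), Cenpa with Cdc20 (0.70) and Cdc20 with Ube2c (0.68). The lowest correlations were those of Cks1b with Ttk in plus TAM (-0.07) and of Ckap5 with Gtse1 in minus TAM (-0.002). These are descriptions over cells that share a library and were picked for their member level. All the genes named in the highest pairs act in mitosis itself rather than in S phase.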

How the data were processed

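Per the labels' protocols, the chemistry was 10x Chromium 3′ v2. The authors' deposited matrices hold UMI counts per gene and cell, per the file headers from Cell Ranger 3.1.0, on mm10 per the submitters' processing notes. Kept cells had 1000 or more genes, 2000 or more UMIs and no more than 20% mitochondrial UMIs. Scrublet in scanpy 1.11.5 marked 3 plus TAM (0.200%) and 10 minus TAM cells (0.372%) as doublets on its own threshold, so the highest scores were removed, 0.8% for each 1000 cells, which were 18 plus TAM and 58 minus TAM cells. Counts were summed over cells and given as CPM with no pseudocount. Ratios have exact conditional binomial intervals, shares exact binomial (Clopper-Pearson) intervals, and CPM exact Poisson intervals. A gene was called lower or higher at 1.5-fold if it had 10 CPM or more in at least 1 library. The 42 members and the lists were chosen with earlier results of these data known. All members are named. Those given in full had the largest and smallest ratio of their role, the comparison lists gave their 3 lowest and 2 highest, and other genes described at length were picked after their values were seen. The computations were tested on simulated data. Alternatives included trimmed mean factors from edgeR 4.0.16, other minima and thresholds, and leaving out cells of shared barcodes. Positions come from GENCODE annotation of GRCm38.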

Additional observations from a re-analysis of the deposited data

How the results depend on the processing

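With 1 library per group, no setting can show how far these values would move in other cultures. In all cells, the median stayed below 0 and the count of lower members within 1.5 times of 25 under other cell filters, doublet handling, scaling factors (trimmed mean, median of ratios) and a 5 CPM minimum or none. At a 50 CPM minimum 8 of 11 measured members were lower in all cells, against 9.49% of all genes. At 2-fold 5 of 34 were lower in all cells, against 2.50% of all genes. In member-rich cells 0 of 42 were lower and 0 higher at 2-fold, against 3.14% and 2.16% of all genes. Averaging CPM per cell gave a median of -0.85 in all cells and 1 higher member in member-rich cells, as did keeping doublets (1) and a 90th percentile threshold (1). Member-rich plus TAM cells were 15.1% with no cell filter. They were 18.7% of plus TAM and 36.4% of minus TAM cells at the 70th percentile, and 7.56% and 11.4% at the 90th. A percentile set in each library fixes equal shares by construction (20.05% and 20.01%); 21 members were then lower, 0 higher, the median was -0.59, and all 42 lay below 0, against 14 with the common threshold, Ccnb2 (-0.0061) and Top2a (-0.078) included. Of the members' values under the alternatives, 434 in all cells moved by less than their interval and 28 by more, and in member-rich cells 590 and 80. Other CPM minima and the 2-fold threshold change calls but not ratios. Their values could not move, and they are counted within the 434 and the 590. A further 2 values, those of Ccnb2 and Top2a with a percentile set in each library, were past 1.5-fold and turned sign. Values of other members that were not past it also crossed 0. Choosing member-rich cells by the 89 other G2/M genes gave 3 lower, 2 higher and a median of 0.06. The settings for the S phase classes were added after seeing the data. No paired analysis was possible because the 8 records of a group were deposited as 1 pooled matrix whose columns do not tell records apart. Depth limits Cdc25c, Ttk, Nuf2 and Kif11 the most, with 118, 115, 177 and 165 UMIs in plus TAM cells.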

Other observations

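Among the 89 other G2/M genes, the roles differed in all cells, where 10.7% of all measured genes were lower by 1.5-fold or more. Kinases, phosphatases and regulators had a median log2 ratio (plus TAM over minus TAM) of -0.94, with 7 of 9 measured lower by 1.5-fold or more, spindle genes and motors -0.70 with 9 of 14 lower, and kinetochore and centromere genes -0.63 with 8 of 13 lower. Structural subunits of the APC/C and separase genes, many of which are made throughout the cell cycle, had a median of -0.19. Of these, 1 of 10 was lower, which is near the share of all genes. Within member-rich cells, where 13.1% of all genes were lower and 6.39% higher, the counts of 6 lower and 5 higher of 84 were not above that background. The lower ones were Tubb4b, a beta-tubulin (-0.81), Psrc1, a spindle protein (-0.70), Anapc11, the RING subunit of the APC/C (-0.70), Ccnf, cyclin F (-0.67), Pkmyt1, a kinase that restrains CDK1 (-0.64), and Spc24 (-0.62). The higher ones were Kpna2 (0.83), the centromere protein gene Cenpw (0.80), the ubiquitin ligase gene G2e3 (0.72), and the spindle genes Kif18a and Aspm (0.68 each). These genes were singled out after their values were seen, and cells of shared barcodes are included.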
